A study of Homo sapiens with 12 samples.

Results

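The genes described here are 35 genes of endoplasmic reticulum (ER) protein folding and of the unfolded protein response, taken by gene symbol out of 60641 symbols in the deposited count table. They were grouped by role into stress sensors and transcription factors (ERN1, ATF6, EIF2AK3, XBP1, CREB3L2), the luminal HSP70 and HSP90 system (HSPA5, HSP90B1, HYOU1, SIL1, DNAJB9, DNAJB11, DNAJC3, SDF2L1, MANF), disulfide isomerases (PDIA3, PDIA4, PDIA5, PDIA6, P4HB, TXNDC5, CRELD2), calcium-binding lectin chaperones and calumenin (CALR, CANX, CALU), ER-associated degradation (HERPUD1, SEL1L, SYVN1, EDEM1, EDEM2, EDEM3, DERL1, DERL2, DERL3, OS9) and SERP1. Expression was measured by RNA sequencing in SRA01/04 cells, a line labelled as immortalised human lens epithelium, 24 h after treatment. The 4 groups of 3 libraries each were DHN-A (1,2-DHN together with asparagine), DHN (1,2-DHN alone), NC-A (asparagine alone) and NC (neither compound). 1,2-DHN is 1,2-dihydroxynaphthalene, a metabolite of naphthalene that oxidises readily to a quinone, and asparagine is a non-essential amino acid. All groups are the same cell line, so every value is from a single genetic background, and the labels do not give the doses or the order of the additions. The comparisons ask how 1,2-DHN and asparagine, alone and together, moved the sensors, the folding enzymes and the degradation genes.

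Proteins that enter the ER are folded by the HSP70 chaperone BiP (gene HSPA5) with its J-domain partners and nucleotide exchange factors, by the HSP90 GRP94, by the lectin chaperones calnexin and calreticulin, and by disulfide isomerases, while proteins that fail to fold are sent back to the cytosol for degradation. The membrane sensors IRE1 (ERN1), PERK (EIF2AK3) and ATF6 read the load of unfolded protein. IRE1 splices the XBP1 mRNA, PERK slows translation by phosphorylating eIF2α, and ATF6 is cut to release a transcription factor. Spliced XBP1 and cut ATF6 are known to raise chaperone and degradation genes, often together, through short promoter elements.

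The sequences below are shown because some of the listed genes carry the same promoter element but did not move together. The ER stress response element (ERSE), bound by ATF6 with NF-Y, was searched as CCAAT, 9 bases of any kind and CCACG on both strands of the 300 bases around each start (250 before, 50 after; RefSeq, GRCh38.p14). A promoter was available for 32 of the 35 genes, PDIA3, DERL1 and DERL3 having none. Only exact matches were counted, and 8 of the 32 genes (25.0%) had one, against 25 of all 27305 genes with a promoter (0.0916%). The 9 sites follow, each read in the direction of the element with 10 bases on either side and with its GRCh38 position, and capitals mark its 2 conserved ends.
XBP1 chr22:28800603-28800621: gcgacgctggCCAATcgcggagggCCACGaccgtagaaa
HSPA5 chr9:125241391-125241409: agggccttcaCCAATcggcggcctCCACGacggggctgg
HSP90B1 chr12:103930216-103930234: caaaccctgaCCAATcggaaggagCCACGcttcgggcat
HSP90B1 chr12:103930321-103930339: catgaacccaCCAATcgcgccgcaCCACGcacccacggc
PDIA6 chr2:10812853-10812871: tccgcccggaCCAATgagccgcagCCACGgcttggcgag
CRELD2 chr22:49918554-49918572: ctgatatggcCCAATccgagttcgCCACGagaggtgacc
CALR chr19:12938384-12938402: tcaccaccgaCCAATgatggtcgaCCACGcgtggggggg
CANX chr5:179698778-179698796: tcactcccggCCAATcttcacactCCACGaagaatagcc
SERP1 chr3:150546710-150546728: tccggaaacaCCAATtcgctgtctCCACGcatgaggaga

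ERSE-II, the related element with ATTGG, 1 base of any kind and CCACG, was found in 3 of the 32 genes (9.38%) and in 19 of the 27305 (0.0696%). HYOU1 had 2 copies. The sites are printed in the same way.
HYOU1 chr11:119057274-119057284: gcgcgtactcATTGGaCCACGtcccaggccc
HYOU1 chr11:119057380-119057390: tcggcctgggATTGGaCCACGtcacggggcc
SDF2L1 chr22:21642114-21642124: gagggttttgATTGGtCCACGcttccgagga
HERPUD1 chr16:56932025-56932035: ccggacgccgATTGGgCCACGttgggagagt

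The XBP1-type element TGACGTGG was found in HYOU1 and TXNDC5, against 253 of the 27305 genes (0.927%), and the HYOU1 copy overlapped the second of its ERSE-II sites. The amino acid response element TTGCATCA, which ATF4 and its partners bind, was found in HERPUD1, against 295 of the 27305 genes (1.08%).
HYOU1 chr11:119057386-119057393: gctggccccgTGACGTGGtccaatccca
TXNDC5 chr6:7910162-7910169: cactggcggcTGACGTGGcgctcggcgg
HERPUD1 chr16:56931966-56931973: acgcggcgggTTGCATCAgcccgtgccc
A match is a description of these letters, and binding was not measured.

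HSPA5 and XBP1 both carry an ERSE close to the start, and their mRNAs moved in opposite directions with 1,2-DHN (values below), so both promoters are given whole, on the strand of the gene, from 250 bases before the start to 50 bases after it. The 5′ end of the ERSE lay 66 bases upstream of the annotated start in HSPA5 (promoter chr9:125241294-125241593, minus strand) and 52 bases upstream in XBP1 (promoter chr22:28800520-28800819, minus strand). Capitals mark the ends of the element.
HSPA5: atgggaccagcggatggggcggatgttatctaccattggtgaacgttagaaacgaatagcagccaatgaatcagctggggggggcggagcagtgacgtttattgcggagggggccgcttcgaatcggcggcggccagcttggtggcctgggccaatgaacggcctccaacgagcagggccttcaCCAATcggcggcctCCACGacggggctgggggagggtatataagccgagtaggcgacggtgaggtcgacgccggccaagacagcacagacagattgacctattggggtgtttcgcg
XBP1: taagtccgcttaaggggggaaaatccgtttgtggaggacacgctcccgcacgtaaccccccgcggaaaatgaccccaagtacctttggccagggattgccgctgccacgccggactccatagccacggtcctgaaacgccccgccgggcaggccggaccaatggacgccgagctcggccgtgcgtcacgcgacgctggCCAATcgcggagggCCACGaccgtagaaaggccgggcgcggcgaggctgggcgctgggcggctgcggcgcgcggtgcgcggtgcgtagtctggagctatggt

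The XBP1 mRNA is also the substrate of IRE1, which removes a stretch of 26 bases within an exon. A position was taken from an annotated transcript with a gap of 26 bases there (GENCODE release 29, GRCh38, chr22:28796124-28796149, minus strand). Capitals mark the bases that this transcript lacks, and another annotated transcript places the gap 2 bases away. The letters gcag stand just before the marked stretch and also end it, so the annotation alone does not fix where IRE1 cuts.
XBP1 mRNA chr22:28796104-28796169: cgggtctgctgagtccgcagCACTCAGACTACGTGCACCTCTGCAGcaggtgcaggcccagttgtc
The deposited counts sum all reads of a gene symbol, so the spliced and unspliced forms of XBP1 were not separated here.

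Library totals ran from 12381071 (DHN 1) to 27526206 (DHN-A 1) counts, and mitochondrial genes took 2.73% to 3.23% of them. NC-A 1 stood apart from the other libraries of its group on the first principal component (33.9% of the variance), at 65.1 against 12.5 for NC-A 2 and 10.4 for NC-A 3. Of 30 lens markers, 9 passed the filter on low counts. PAX6, the lens and eye transcription factor, had 25.3, 29.8, 23.0 and 25.1 mean CPM (read counts scaled to a common library size) in DHN-A, DHN, NC-A and NC. The lens crystallins CRYGC and CRYGD were at 0 in every library, and CRYAA, MIP and LIM2, which define lens cells and fibres, had group means of at most 0.0622 CPM. Among the lens markers that passed, CRYGS, BFSP1 and GJA3 averaged between 1.52 and 5.03 CPM in the groups, and the small heat shock crystallin CRYAB, which other cell types also express, had 3.66, 3.97 and 3.80 CPM in DHN-A, 12.1, 10.8 and 9.37 in DHN, 1.18, 1.38 and 0.745 in NC-A and 0.372, 1.06 and 0.675 in NC. The labels do not say whether the 3 libraries of a group were separate cultures, so the p-values measure the spread between libraries, which may be technical.

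Of the 35 genes, 34 had enough counts for a test among 17889 tested symbols. DERL3, a derlin of secretory cells, had a mean of 2.75 counts per library and was not tested. Per transcript length, as TPM (the share of transcripts on a common scale), the folding machinery was abundant: in NC, CALR had 3782 ± 56.8 TPM (SD, n = 3), which ranked 19 among all symbols, HSPA5 1322 ± 24.99, PDIA4 1279.5 ± 15.6 and HSP90B1 1016 ± 31.8. The sensors were far scarcer, with 32.0 ± 2.26 TPM for ATF6 and 7.85 ± 0.613 for ERN1 in NC. The 35 genes summed to 9261 ± 27.3 TPM in DHN-A, 9528 ± 149 in DHN, 9355 ± 144 in NC-A and 11529.8 ± 50.2 in NC (mean ± SD, n = 3 libraries each), which is 0.926%, 0.953%, 0.936% and 1.15% of all transcripts. Every library of the 3 treated groups was below every NC library in this sum. The HSP70 and HSP90 system had 2062 ± 35.02 TPM in DHN-A, 2331 ± 56.6 in DHN, 2214 ± 12.4 in NC-A and 3102 ± 42.5 in NC. Disulfide isomerases had 2486 ± 29.9 TPM in DHN-A, 2141 ± 15.9 in DHN, 2502 ± 16.9 in NC-A and 2780.02 ± 26.9 in NC, so that DHN was the lowest group for isomerases and the highest treated group for the HSP70 and HSP90 system. The sums are carried by the few most abundant genes, and a lower share of transcripts cannot be told apart from more RNA of other genes.

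**Figure D1:**
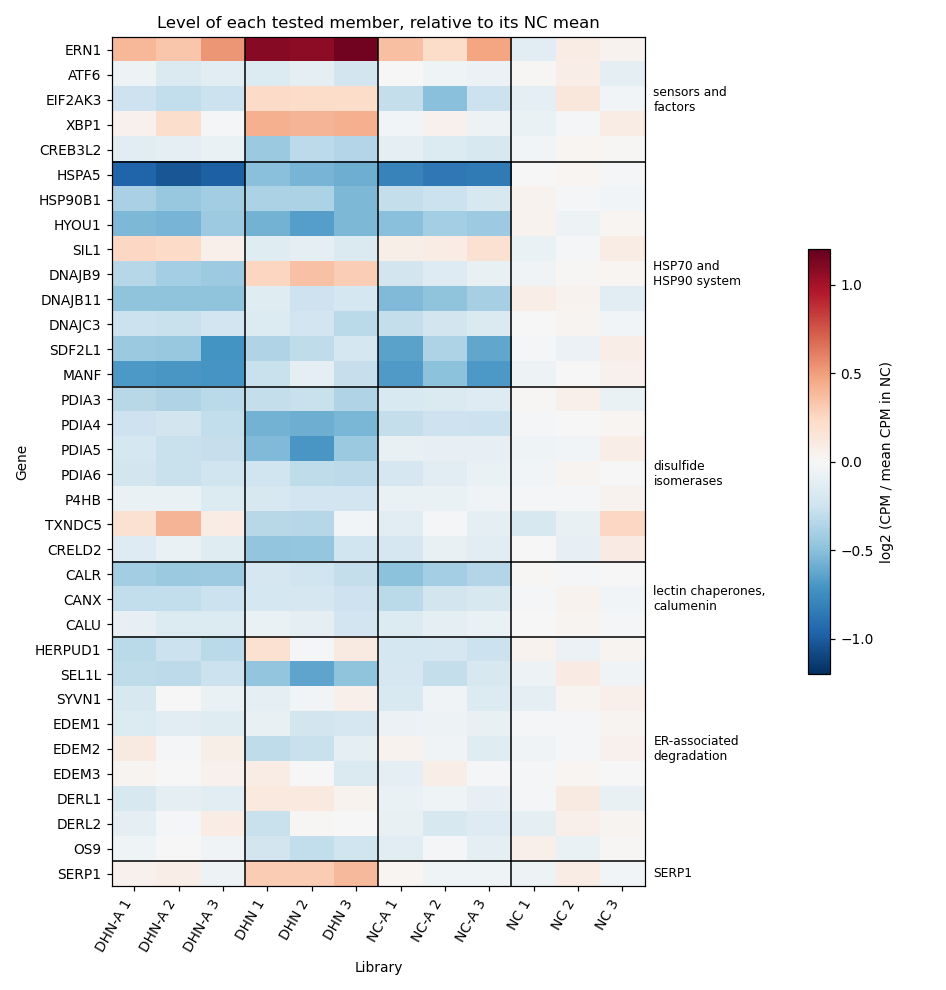
Level of each of the 34 tested genes in each of the 12 libraries, as log2 of CPM over the mean CPM in NC, with red above and blue below the NC mean and genes ordered by role. ERN1, XBP1, DNAJB9 and SERP1 are reddest in DHN, HSPA5, MANF and SDF2L1 are bluest in DHN-A and NC-A, and PDIA4, PDIA5 and SEL1L are bluest in DHN.

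With 1,2-DHN alone (DHN against NC) most of these genes were lower while ERN1 and XBP1, the sensor IRE1 and its mRNA target, were higher. At an adjusted p under 0.05 (edgeR's quasi-likelihood test, Benjamini-Hochberg over 17889 genes), 5 of the 34 rose and 22 fell, where 19.7% of all tested genes rose and 19.0% fell (38.7% in either direction). Their median log2 change was -0.22, against 0.0073 over all tested genes. These genes were deep in counts, with a median of 1567 per library against 293 for all tested genes. The median size of a called change was 0.29 on the log2 scale, and of the 34 genes ERN1 alone reached 2-fold. The genes that rose were ERN1, XBP1, EIF2AK3, DNAJB9 and SERP1. No disulfide isomerase, lectin chaperone or degradation gene rose; 6 of 7 isomerases, all 3 of the lectin group and 4 of 9 degradation genes fell. The median log2 change was 0.22 for the sensors and factors, -0.24 for the HSP70 and HSP90 system, -0.31 for the isomerases, -0.22 for the lectin group and -0.067 for the degradation genes.

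When asparagine was given with 1,2-DHN (DHN-A against DHN), 10 of the 34 rose and 12 fell, against 20.9% and 20.8% of all tested genes (41.7% in either direction), with a median log2 change of 0.0043 (0.0091 over all tested genes). By role, 5 of 7 isomerases rose and none fell (median 0.25), while 5 of 9 members of the HSP70 and HSP90 system and 3 of 5 sensors and factors fell and 1 of each rose (medians -0.24 and -0.34). Asparagine alone (NC-A against NC) lowered 17 of the 34 and raised ERN1, against 10.9% lower and 9.32% higher among all tested genes (20.2% in all), with a median of -0.15 (0.0031 over all tested genes). Without the library NC-A 1, 15 genes fell and ERN1 rose, the calls of PDIA6 and CALU being lost. Once asparagine was present (DHN-A against NC-A), few of these genes were called with 1,2-DHN: none rose and 3 fell (HSPA5, HSP90B1 and PDIA3), against 0.805% higher and 1.29% lower among all tested genes (2.10% in all). That count was 0 without DHN-A 2, 1 without NC-A 3 and 6 with DESeq2. With both compounds against neither (DHN-A against NC), 2 rose and 22 fell, against 9.83% and 11.2% of all tested genes (21.1% in all). These comparisons share libraries, so their values below stand side by side and are not independent of each other.

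**Figure D2:**
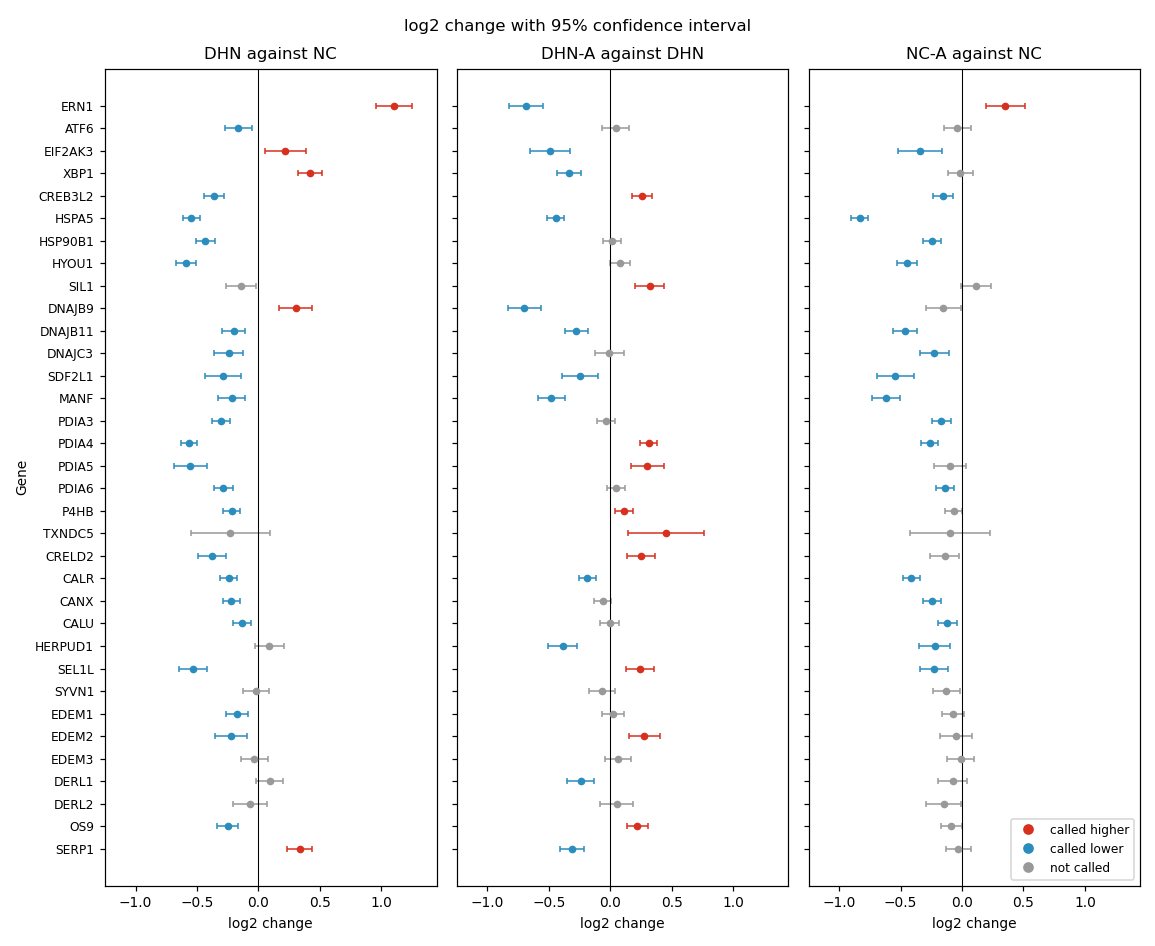
Log2 change of each tested gene with its 95% confidence interval, in DHN against NC, DHN-A against DHN and NC-A against NC, coloured by the edgeR call (red higher, blue lower, grey not called). ERN1 lies far to the right in DHN against NC at 1.10; HSPA5 is lower in all 3 panels, and PDIA4 is lower in the outer panels and higher in the middle one.

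Among the sensors, ERN1, the kinase and nuclease IRE1, had 28.4, 27.1 and 31.0 CPM in DHN-A, 45.9, 45.2 and 48.0 in DHN, 27.6, 24.96 and 29.8 in NC-A and 19.5, 22.8 and 22.1 in NC. Every DHN library was above every library of the other groups, and every NC library was below them. ERN1 rose by 1.10 ± 0.073 (adjusted p = 2.51e-17) in DHN against NC on the log2 scale (± standard error here and below), which is 2.15-fold. It fell by 0.69 ± 0.069 (adjusted p = 1.7e-11) in DHN-A against DHN and rose by 0.35 ± 0.078 (adjusted p = 0.000754) in NC-A against NC. XBP1, the transcription factor made from the mRNA that IRE1 splices, had 157, 176 and 149.6 CPM in DHN-A, 204, 202 and 204 in DHN, 148, 158 and 146 in NC-A and 144, 150.4 and 162 in NC. Its 3 DHN libraries were above all others, and the remaining groups overlapped. XBP1 rose by 0.42 ± 0.049 (adjusted p = 1.16e-08) in DHN against NC and fell by 0.34 ± 0.048 (adjusted p = 5.15e-07) in DHN-A against DHN. In NC-A against NC it differed by -0.016 ± 0.050 (adjusted p = 0.864).

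EIF2AK3, the eIF2α kinase PERK, had 16.9, 16.5 and 16.9 CPM in DHN-A, 23.7, 23.5 and 23.5 in DHN, 16.5, 14.2 and 16.9 in NC-A and 18.6, 22.2 and 19.7 in NC. The DHN libraries were again the highest and NC lay between DHN and the asparagine groups, which overlapped each other. Its rise of 0.22 ± 0.082 (adjusted p = 0.0304) in DHN against NC was the least secure of the 5: it was not called in 8 of 19 alternatives, among them DESeq2 and each fit without NC 1, NC 3 or any of the DHN libraries, where the adjusted p reached 0.158. It fell by 0.49 ± 0.082 (adjusted p = 2.9e-06) in DHN-A against DHN and by 0.34 ± 0.088 (adjusted p = 0.00349) in NC-A against NC. Asparagine moved ERN1 and EIF2AK3 in opposite directions in cells without 1,2-DHN and in the same direction in cells with it. ATF6, the sensor released by proteolysis, had 60.7, 56.0 and 58.0 CPM in DHN-A, 56.5, 58.5 and 54.4 in DHN, 63.5, 61.2 and 60.2 in NC-A and 63.9, 67.1 and 58.9 in NC. Its groups lay close together, and DHN and NC did not overlap. ATF6 fell by 0.16 ± 0.055 (adjusted p = 0.0151) in DHN against NC, a call lost without NC 2 (adjusted p = 0.122) or DHN 3 (adjusted p = 0.101), and differed by 0.044 ± 0.054 (adjusted p = 0.546) in DHN-A against DHN. CREB3L2, a membrane-bound factor of the ATF6 type that drives secretory pathway genes in mouse cartilage, had 191, 193 and 198 CPM in DHN-A, 153, 169 and 164 in DHN, 193, 187 and 183 in NC-A and 204, 213 and 211 in NC. Every DHN library was below, and every NC library above, all others. CREB3L2 fell by 0.36 ± 0.041 (adjusted p = 3.03e-10) in DHN against NC and rose by 0.26 ± 0.040 (adjusted p = 8.72e-07) in DHN-A against DHN.

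The luminal HSP70 and HSP90 system fell in 7 of 9 members with 1,2-DHN alone, in 7 of 9 with asparagine alone and in 5 of 9 when asparagine was given with 1,2-DHN. Among all tested genes, 19.0%, 10.9% and 20.8% fell in these comparisons. HSPA5, which encodes BiP and is a standard readout of ER stress, had 669.5, 639.7 and 662 CPM in DHN-A, 923, 888 and 872 in DHN, 750.1, 723 and 723 in NC-A and 1305, 1325 and 1289 in NC. The 4 groups did not overlap at all and ran NC, DHN, NC-A, DHN-A from high to low. In DHN against NC, HSPA5 fell by 0.55 ± 0.034 (adjusted p = 3.05e-18). HSPA5 fell by 0.84 ± 0.034 (adjusted p = 1.36e-23) in NC-A against NC, by 0.44 ± 0.034 (adjusted p = 4.68e-15) in DHN-A against DHN and by 0.99 ± 0.034 (adjusted p = 4.24e-27) in DHN-A against NC, the largest fall of any of the 34 genes in each of the first and the last of these comparisons. MANF, a calcium-regulated luminal stress protein that stabilises BiP with its clients, had 49.96, 49.4 and 49.3 CPM in DHN-A, 66.9, 74.1 and 66.2 in DHN, 50.3, 57.1 and 50.01 in NC-A and 77.1, 80.5 and 83.5 in NC. The NC libraries were the highest, DHN was next and both asparagine groups were lower. MANF fell by 0.62 ± 0.056 (adjusted p = 7.25e-12) in NC-A against NC and by 0.48 ± 0.055 (adjusted p = 5.35e-10) in DHN-A against DHN. Its smaller fall of 0.22 ± 0.054 (adjusted p = 0.00096) in DHN against NC was lost after thinning all libraries to the smallest (adjusted p = 0.0634).

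HYOU1, the large HSP70 relative GRP170 that exchanges nucleotide on BiP, had 250.04, 247 and 269 CPM in DHN-A, 246, 230.1 and 249.7 in DHN, 257, 274 and 269 in NC-A and 374, 349 and 369 in NC. All NC libraries were above all others, and DHN-A overlapped both DHN and NC-A. HYOU1 fell by 0.59 ± 0.041 (adjusted p = 1.43e-16) in DHN against NC and by 0.45 ± 0.041 (adjusted p = 7.89e-12) in NC-A against NC, but differed by 0.078 ± 0.041 (adjusted p = 0.126) in DHN-A against DHN. HSP90B1, which encodes GRP94, fell by 0.43 ± 0.038 in DHN and by 0.25 ± 0.038 in NC-A, each against NC, and differed by 0.014 ± 0.038 in DHN-A against DHN. SIL1, the other nucleotide exchange factor of BiP, differed by -0.14 ± 0.060 (adjusted p = 0.0514) in DHN against NC, where it was called lower in 6 of 19 alternatives (without NC 1, NC-A 1 or DHN-A 3, with relative log expression factors, with no filter on low counts and with the groups compared alone), and rose by 0.32 ± 0.058 (adjusted p = 1.16e-05) in DHN-A against DHN.

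The J-domain partners of BiP did not move as a set. DNAJB9 (ERdj4), a BiP cochaperone that is also known to hold IRE1 inactive, had 23.2, 22.1 and 21.7 CPM in DHN-A, 34.99, 37.5 and 36.1 in DHN, 25.2, 26.4 and 27.6 in NC-A and 28.4, 29.7 and 29.9 in NC. Its 4 groups did not overlap, with DHN highest and DHN-A lowest. DNAJB9 rose by 0.30 ± 0.067 (adjusted p = 0.000231) in DHN against NC and fell by 0.70 ± 0.067 (adjusted p = 5.29e-12) in DHN-A against DHN, the largest fall of the 34 genes in that comparison. DNAJB11 (ERdj3), which delivers unfolded clients to BiP, instead fell by 0.20 ± 0.047 in DHN against NC, by 0.28 ± 0.047 in DHN-A against DHN and by 0.46 ± 0.048 in NC-A against NC. Its binding partner SDF2L1 fell in the same 3 comparisons, by 0.29 ± 0.071, 0.24 ± 0.072 and 0.55 ± 0.074, the second of these calls being lost without DHN-A 3 (adjusted p = 0.061). DNAJC3 (P58IPK), a luminal cochaperone also described as an inhibitor of eIF2α kinases, fell by 0.24 ± 0.059 in DHN and 0.23 ± 0.060 in NC-A against NC and differed by -0.0083 ± 0.059 in DHN-A against DHN.

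**Figure D3:**
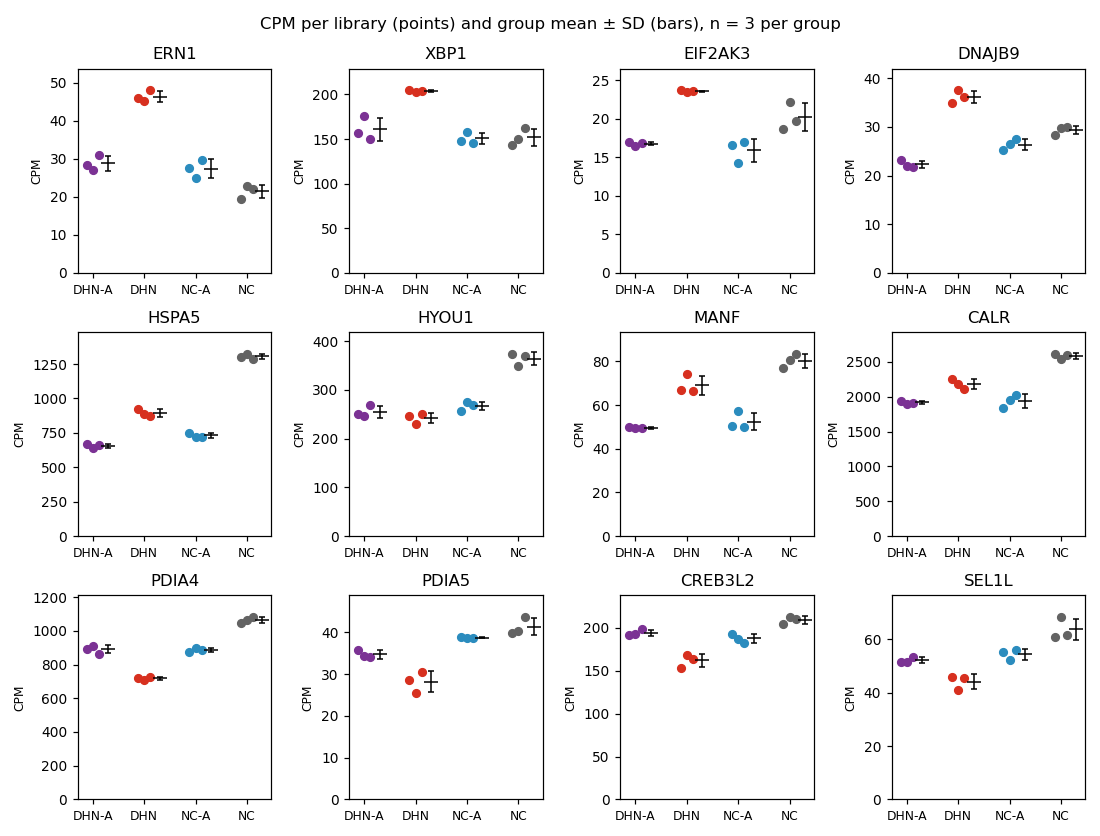
CPM of 12 genes in each library (points) with the group mean and SD (bars, n = 3), the groups running DHN-A, DHN, NC-A and NC from left to right on axes that start at 0. ERN1, XBP1, EIF2AK3 and DNAJB9 are highest in DHN, HSPA5, HYOU1, MANF and CALR are highest in NC, and PDIA4, PDIA5, CREB3L2 and SEL1L are lowest in DHN.

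Disulfide isomerases were lowest in DHN and partly higher again with asparagine: 6 of 7 fell in DHN against NC, 5 of 7 rose in DHN-A against DHN and 3 of 7 fell in NC-A against NC. Among all tested genes, 19.0% fell, 20.9% rose and 10.9% fell in these comparisons. PDIA4 (ERp72), an isomerase with an extra thioredoxin-like domain, had 894, 913 and 865 CPM in DHN-A, 719, 707 and 727 in DHN, 871, 896 and 888 in NC-A and 1045, 1063 and 1082 in NC. The DHN libraries were below all others, NC was above all others, and both asparagine groups lay between and overlapped. PDIA4 fell by 0.57 ± 0.034 (adjusted p = 5.79e-19) in DHN against NC, rose by 0.31 ± 0.033 (adjusted p = 1.19e-10) in DHN-A against DHN and fell by 0.26 ± 0.033 (adjusted p = 4.35e-08) in NC-A against NC. PDIA5 had 35.9, 34.3 and 34.0 CPM in DHN-A, 28.7, 25.6 and 30.4 in DHN, 38.9, 38.7 and 38.6 in NC-A and 39.96, 40.4 and 43.7 in NC. Its groups ran DHN, DHN-A, NC-A and NC from low to high with no overlap. PDIA5 fell by 0.55 ± 0.067 (adjusted p = 2.48e-09) in DHN against NC and rose by 0.30 ± 0.067 (adjusted p = 0.000239) in DHN-A against DHN, and part of its exons (14.3%) is shared with another gene on the same strand.

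CRELD2, a stress-induced luminal protein with isomerase activity, fell by 0.38 ± 0.057 (adjusted p = 5.36e-07) in DHN against NC and rose by 0.25 ± 0.056 (adjusted p = 3e-04) in DHN-A against DHN. P4HB, the prototype isomerase PDI, fell by 0.22 ± 0.035 in DHN against NC. Its rise in DHN-A against DHN, 0.11 ± 0.035 (adjusted p = 0.00757), was lost without DHN 2 (adjusted p = 0.0507) or DHN-A 2 (adjusted p = 0.0597). PDIA3 (ERp57), the isomerase that works with calnexin and calreticulin, fell by 0.31 ± 0.038 in DHN against NC and PDIA6 (P5) by 0.29 ± 0.037, but in DHN-A against DHN they differed by -0.034 ± 0.038 and 0.044 ± 0.037. Counts of both are uncertain, because 18.9% of the exon bases of PDIA3 and 25.2% of those of PDIA6 lie opposite exons of other genes (15.1% for EIF2AK3, 15.3% for DNAJB11 and 13.5% for OS9) and the labels do not state the strand setting of the counting. TXNDC5 (ERp46) had 56.8, 66.2 and 53.2 CPM in DHN-A, 39.7, 39.3 and 48.9 in DHN, 45.3, 49.1 and 46.5 in NC-A and 43.6, 47.0 and 59.1 in NC. Its libraries were scattered within DHN, DHN-A and NC, and DHN overlapped NC. It rose by 0.45 ± 0.14 (adjusted p = 0.0257) in DHN-A against DHN, a call that 4 fits with a library left out did not keep (without DHN 1, DHN 2, DHN-A 1 or DHN-A 2, with adjusted p from 0.052 to 0.101). TXNDC5 shares 60.6% of its exon bases with a read-through transcript that was listed at 0 counts.

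The lectin chaperones and calumenin all fell in DHN against NC and all fell in NC-A against NC, where 19.0% and 10.9% of all tested genes fell. CALR (calreticulin), the most abundant of the 35 genes, had 1938, 1901 and 1916 CPM in DHN-A, 2250.2, 2186 and 2114 in DHN, 1837, 1952 and 2026 in NC-A and 2617, 2541 and 2599 in NC. All NC libraries were above all others, DHN was next, and DHN-A and NC-A overlapped. CALR fell by 0.24 ± 0.034 (adjusted p = 7.82e-08) in DHN against NC, by 0.19 ± 0.034 (adjusted p = 1.3e-05) in DHN-A against DHN and by 0.42 ± 0.034 (adjusted p = 3.7e-13) in NC-A against NC. CANX, its membrane-bound counterpart calnexin, had 774, 776 and 792 CPM in DHN-A, 819.7, 827 and 799 in DHN, 759, 815 and 829 in NC-A and 942, 980.4 and 928 in NC. The NC libraries were again above all others. It fell by 0.22 ± 0.035 in DHN and 0.25 ± 0.035 in NC-A against NC, and differed by -0.062 ± 0.035 (adjusted p = 0.158) in DHN-A against DHN. CALU, a calcium-binding protein of the secretory pathway, changed least of the 3, falling by 0.14 ± 0.037 (adjusted p = 0.00285) in DHN against NC (not called without DHN 3, adjusted p = 0.0757) and by 0.12 ± 0.037 (adjusted p = 0.0184) in NC-A against NC (not called without NC 2, adjusted p = 0.0694, or NC-A 1, adjusted p = 0.0945).

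Of the 9 tested genes of ER-associated degradation, 4 fell and none rose in DHN against NC. In DHN-A against DHN 3 rose and 2 fell, and in NC-A against NC 2 fell. Among all tested genes, 19.0% fell and 19.7% rose in the first comparison, and 20.9% rose and 20.8% fell in the second. In the third, 10.9% of all tested genes fell. The 2 of 9 (22.2%) that fell in DHN-A against DHN are thus near the share of all tested genes. SEL1L, the scaffold of the HRD1 ubiquitin ligase complex, had 51.5, 51.3 and 53.3 CPM in DHN-A, 45.9, 41.0 and 45.5 in DHN, 55.3, 52.1 and 55.8 in NC-A and 61.0, 68.3 and 61.7 in NC. Every DHN library was below, and every NC library above, all others. SEL1L fell by 0.53 ± 0.058 (adjusted p = 1.38e-10) in DHN against NC, rose by 0.24 ± 0.058 (adjusted p = 0.000563) in DHN-A against DHN and fell by 0.23 ± 0.058 (adjusted p = 0.00313) in NC-A against NC. The ligase itself, SYVN1 (HRD1), differed by -0.020 ± 0.054 (adjusted p = 0.819) in DHN against NC and by -0.070 ± 0.053 (adjusted p = 0.309) in DHN-A against DHN, with intervals of -0.13 to 0.089 and -0.18 to 0.038. OS9, the lectin that brings trimmed glycoproteins to SEL1L, fell by 0.25 ± 0.042 (adjusted p = 2.63e-06) in DHN against NC and rose by 0.22 ± 0.041 (adjusted p = 2.08e-05) in DHN-A against DHN.

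The mannosidase-like EDEM proteins mark misfolded glycoproteins for this complex, and they did not move alike. EDEM2, which starts the mannose trimming, had 46.9, 43.0 and 45.8 CPM in DHN-A, 35.3, 36.2 and 40.1 in DHN, 44.9, 42.4 and 39.4 in NC-A and 42.4, 43.1 and 45.2 in NC. Its DHN libraries were below those of DHN-A and NC, while NC-A overlapped NC. EDEM2 fell by 0.22 ± 0.064 (adjusted p = 0.00371) in DHN against NC and rose by 0.28 ± 0.062 (adjusted p = 0.000276) in DHN-A against DHN. EDEM1 fell by 0.17 ± 0.045 (adjusted p = 0.00164) in DHN against NC and differed by 0.025 ± 0.044 in DHN-A against DHN. EDEM3 was called in no comparison, at -0.034 ± 0.055 in DHN against NC and at 0.064 ± 0.054 in DHN-A against DHN, with an interval of -0.14 to 0.077 for the first. HERPUD1 (HERP), a membrane adaptor of the complex and a rapid stress target, had 39.0, 41.0 and 39.2 CPM in DHN-A, 55.6, 48.1 and 52.7 in DHN, 42.3, 42.7 and 40.8 in NC-A and 50.3, 46.6 and 49.9 in NC. The DHN libraries overlapped those of NC and were above all DHN-A libraries. HERPUD1 differed by 0.087 ± 0.059 (adjusted p = 0.265) in DHN against NC, fell by 0.39 ± 0.059 (adjusted p = 4.24e-07) in DHN-A against DHN and fell by 0.22 ± 0.061 (adjusted p = 0.00625) in NC-A against NC, the last call being lost after thinning to the smallest library (adjusted p = 0.0512). Of the derlins, which form part of the exit channel, DERL1 differed by 0.091 ± 0.056 (adjusted p = 0.207) in DHN against NC, where it was called higher without NC 2, and fell by 0.24 ± 0.055 (adjusted p = 0.000378) in DHN-A against DHN, and DERL2 was called in no comparison.

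SERP1 (RAMP4), which binds the translocon and stabilises new membrane proteins under stress, had 78.1, 79.3 and 72.0 CPM in DHN-A, 92.9, 93.0 and 98.4 in DHN, 76.4, 72.4 and 72.4 in NC-A and 72.2, 79.8 and 73.6 in NC. Every DHN library was above all others. SERP1 rose by 0.33 ± 0.050 (adjusted p = 2.9e-07) in DHN against NC and fell by 0.31 ± 0.049 (adjusted p = 8.56e-07) in DHN-A against DHN. The 8 genes whose promoters hold an exact ERSE (printed above) included both kinds: in DHN against NC, XBP1 and SERP1 rose and HSPA5, HSP90B1, PDIA6, CRELD2, CALR and CANX fell. In NC-A against NC, 5 of the 8 fell and none rose, and in DHN-A against DHN, 4 fell and 1 rose. Of the 34 tested genes of this report, 17 fell and 1 rose in NC-A against NC, and 12 fell and 10 rose in DHN-A against DHN. Among all tested genes, 10.9% fell in NC-A against NC, and 20.8% fell and 20.9% rose in DHN-A against DHN. Whether genes with an ERSE differed from the rest of the 34 was not tested. The 3 genes with an ERSE-II (HYOU1, SDF2L1 and HERPUD1) all fell in NC-A against NC, HERPUD1 not after thinning. HERPUD1, which also holds the amino acid response element, differed by 0.087 ± 0.059 (adjusted p = 0.265) in DHN against NC. It fell by 0.39 ± 0.059 in DHN-A against DHN, and the part of the element in its changes was not tested.

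Taking each gene's 4 group means in CPM, 4 of the 34 were highest in DHN-A, 7 in DHN, none in NC-A and 23 in NC. The 7 highest in DHN were ERN1, EIF2AK3, XBP1, DNAJB9, HERPUD1, DERL1 and SERP1. The lowest mean was in DHN-A for 11 genes, in DHN for 16, in NC-A for 6 and in NC for ERN1 alone. The DHN-A minimum held for HSPA5, DNAJB9, DNAJB11, DNAJC3, MANF, CALR, CANX and CALU among others, while the DHN minimum held for 6 of the 7 isomerases and for SEL1L, EDEM1, EDEM2, EDEM3 and OS9. Neighbouring means in these orders often did not differ beyond their spread, as the overlaps given above show. Such counts were not taken over all tested genes, so whether these orders are particular to the 34 was not tested.

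Whether the change with 1,2-DHN differed when asparagine was present was tested directly, as the log2 change of DHN-A against NC-A less that of DHN against NC. This interaction was called for 20 of the 34 genes, positive in 16 and negative in 4, against 13.2% positive and 12.5% negative among all tested genes (25.7% in all), and its median was 0.18. The negative values were those of genes that rose with 1,2-DHN alone. ERN1 had -1.04 ± 0.10 (adjusted p = 5.47e-11), with a change of 1.10 ± 0.073 without asparagine and 0.064 ± 0.074 (adjusted p = 0.812) with it. DNAJB9 had -0.55 ± 0.10 (adjusted p = 2.04e-05), XBP1 -0.32 ± 0.070 (adjusted p = 0.000515) and SERP1 -0.28 ± 0.071 (adjusted p = 0.00206). For EIF2AK3 the interaction was -0.15 ± 0.12 (adjusted p = 0.435), with an interval of -0.39 to 0.10, so a difference was not shown. Among called genes, the largest positive values were 0.58 ± 0.047 (adjusted p = 1.55e-13) for PDIA4, 0.53 ± 0.058 (adjusted p = 6.95e-10) for HYOU1, 0.47 ± 0.081 (adjusted p = 1.26e-05) for SEL1L, 0.41 ± 0.057 (adjusted p = 1.66e-07) for CREB3L2 and 0.40 ± 0.094 (adjusted p = 0.000971) for PDIA5. TXNDC5 had 0.55 ± 0.20 (adjusted p = 0.0757), which was called in 5 of 18 alternatives. The 5 called genes had each fallen with 1,2-DHN alone, and with asparagine present their changes were 0.0090 ± 0.033, -0.063 ± 0.041, -0.065 ± 0.057, 0.049 ± 0.040 and -0.16 ± 0.066. For the 31 genes not called in DHN-A against NC-A, the outermost bounds of the 95% intervals were -0.39 (DNAJB9) and 0.64 (TXNDC5) on the log2 scale. Without NC-A 1 the interaction was called for 18 genes, DNAJB11 and SDF2L1 being lost; these calls were also lost in most other fits with a library left out, with adjusted p up to 0.115 for DNAJB11 and 0.0979 for SDF2L1.

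**Figure D4:**
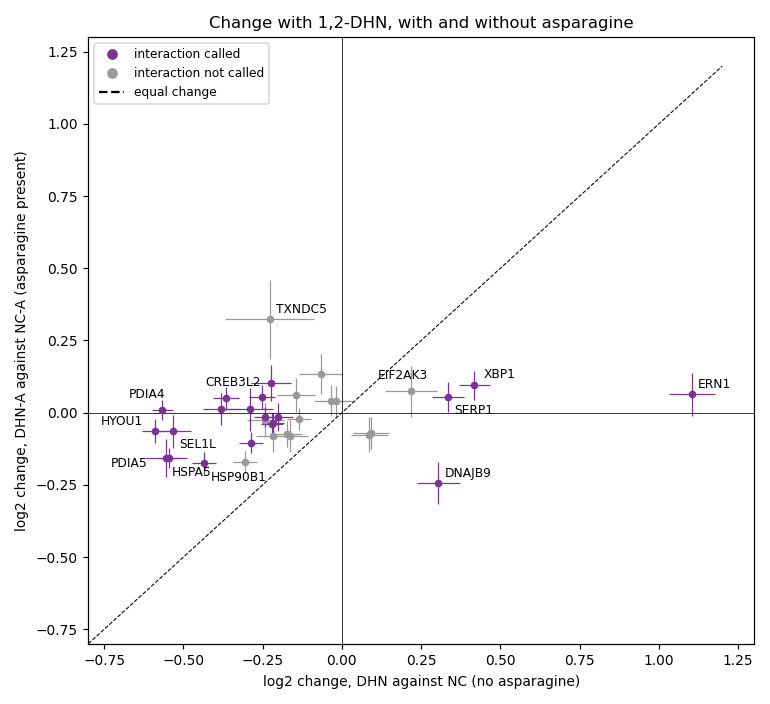
Log2 change with 1,2-DHN in the presence of asparagine (DHN-A against NC-A, vertical) against that in its absence (DHN against NC, horizontal) for the 34 tested genes, with bars of 1 standard error; purple points have a called interaction and the dashed line marks equal change. ERN1 is at the far right, PDIA4, HYOU1, HSPA5, SEL1L and PDIA5 are at the far left, and most points lie close to the horizontal zero line.

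With both compounds against neither, ERN1 rose by 0.42 ± 0.074 (adjusted p = 2.91e-05) and SIL1 by 0.18 ± 0.057 (adjusted p = 0.0209), although the SIL1 libraries of DHN-A and NC overlapped and its call was lost without NC 1, NC 2, DHN-A 1 or DHN-A 2 (adjusted p up to 0.138), with DESeq2 and after thinning. The largest falls were those of HSPA5 (0.99 ± 0.034), MANF (0.70 ± 0.054), SDF2L1 (0.53 ± 0.070), HYOU1 (0.51 ± 0.040) and DNAJB11 (0.48 ± 0.046). The same 5 genes had the largest falls in NC-A against NC, a comparison that shares the NC libraries, at 0.84 ± 0.034, 0.62 ± 0.056, 0.55 ± 0.074, 0.45 ± 0.041 and 0.46 ± 0.048. The 3 genes called in DHN-A against NC-A were HSPA5, which fell by 0.16 ± 0.034 (adjusted p = 0.00529), HSP90B1, which fell by 0.17 ± 0.038 (adjusted p = 0.00528), and PDIA3, which fell by 0.17 ± 0.038 (adjusted p = 0.00613).

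Another 155 genes of the same pathways, in 8 lists, were examined beside these, and 153 had enough counts. Of these, 37 rose and 59 fell in DHN against NC, where 19.7% of all tested genes rose and 19.0% fell, whereas 48 rose and 54 fell in DHN-A against DHN, where 20.9% and 20.8% did. The 37 that rose are thus near the share among all tested genes, and the lists below are read against the same shares. The lists were chosen with earlier results of these data known, and the shares do not correct for that choice. In the list named here the PERK branch, 15 of 16 genes rose and none fell in DHN against NC (median 0.87). In DHN-A against DHN, 1 rose and 12 fell (median -0.48), and in NC-A against NC, 9 rose and 1 fell (median 0.19). Among all tested genes, 9.32% rose and 10.9% fell in NC-A against NC. EIF2AK3, which encodes PERK, itself fell in NC-A against NC. The activity of PERK was not measured, and its part in the changes of this list was not tested. CHAC1, a glutathione-degrading target of ATF4, rose by 1.67 ± 0.11 (adjusted p = 5.04e-18) and PPP1R15A (GADD34), which reverses eIF2α phosphorylation, by 1.42 ± 0.037 (adjusted p = 2.03e-32) in DHN against NC. In DHN-A against DHN, ATF3, a stress-induced transcription factor, fell by 1.11 ± 0.040 (adjusted p = 8.54e-27) and BCL2L11 (BIM), a pro-apoptotic protein, by 1.05 ± 0.10 (adjusted p = 6.48e-12). Of the genes of N-glycan transfer and glucose trimming, which feed the calnexin cycle, 16 of 17 fell in DHN against NC (median -0.33), and 12 rose and none fell in DHN-A against DHN (median 0.15). GANAB, the glucosidase that hands glycoproteins to calnexin, fell by 0.52 ± 0.038 (adjusted p = 1.05e-15) in DHN against NC and rose by 0.42 ± 0.038 (adjusted p = 7.59e-13) in DHN-A against DHN. UGGT2, a glucosyltransferase of the family that returns unfolded glycoproteins to calnexin, fell by 0.48 ± 0.090 (adjusted p = 2.47e-05) in DHN against NC.

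Among the 22 tested genes of oxidative folding and prolyl isomerisation, 1 rose and 14 fell in DHN against NC (median -0.21), and 9 rose and 4 fell in DHN-A against DHN (median 0.11). Of the oxidases that recharge the isomerases, ERO1A fell by 0.69 ± 0.039 (adjusted p = 1.74e-19) in DHN against NC, while ERO1B rose by 0.65 ± 0.10 (adjusted p = 1.49e-06) and fell by 0.82 ± 0.10 (adjusted p = 5.79e-09) in DHN-A against DHN. Of 27 other degradation genes, 7 rose and 5 fell in DHN against NC, and 4 rose and 12 fell in DHN-A against DHN; the first pair of counts is near the 19.7% and 19.0% of all tested genes. RNF185, a membrane ubiquitin ligase, rose by 0.61 ± 0.076 (adjusted p = 5.46e-09) in DHN against NC and fell by 0.58 ± 0.074 (adjusted p = 9.31e-09) in DHN-A against DHN. Of the 12 other members of the ATF6 and CREB3 family with their proteases, 4 rose and 3 fell in DHN against NC. ATF6B, the relative of ATF6, fell by 0.34 ± 0.061 (adjusted p = 1.79e-05), and MBTPS1, the site-1 protease that cuts ATF6, by 0.33 ± 0.046 (adjusted p = 1.15e-07). In DHN-A against DHN, 5 of these 12 rose and 4 fell, and ATF6B rose by 0.53 ± 0.060 (adjusted p = 1.12e-09). In DHN against NC, 1 of 19 translocon and signal peptide genes rose and 6 fell, 5 of 22 COPII export genes rose and 8 fell, and 4 of 18 genes of ER calcium handling and stress regulation rose and 7 fell. In DHN-A against DHN the same lists had 5 higher and 6 lower, 6 higher and 10 lower, and 6 higher and 6 lower. Among all tested genes, 20.9% rose and 20.8% fell in that comparison. The rises in the translocon and COPII lists and the falls in the oxidative folding list there are near these shares. The rises in the COPII and calcium lists in DHN against NC are near the 19.7% of all tested genes that rose there.

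Markers of other cell types were read in the same libraries, since secretory cells load the ER heavily. Of 10 fibroblast markers, 8 passed the filter, and the summed level of the list was 1451 to 1516 CPM in DHN-A, 959 to 1015 in DHN, 1496 to 1519 in NC-A and 1703 to 1807 in NC. COL1A1, the collagen chain that gives most of this sum, averaged 1048, 691, 1042 and 1232 CPM in DHN-A, DHN, NC-A and NC, while DCN and LUM averaged at most 0.139 CPM in any group. The sum thus stood in the order of the isomerase sum, lowest in DHN and highest in NC, and its part in the isomerase result was not tested. Of 10 markers of antibody-secreting cells, 4 passed, with sums of 258 to 273, 196 to 216, 252 to 266 and 259 to 274 CPM in the same order of groups. SDC1, which epithelia also express, gave most of it, and the defining markers JCHAIN and MZB1 averaged at most 0.102 CPM in any group. The 30 lens markers together summed to 53.4 to 58.6, 67.1 to 72.5, 48.9 to 52.5 and 52.6 to 54.5 CPM, and this part too was not tested. Keratinocyte markers (2 of 10 passed), pigment cell markers (5 of 10) and immune cell markers (4 of 10) summed to at most 52.5, 12.7 and 10.1 CPM in any library. In these bulk libraries, fewer cells of a type and less RNA per cell cannot be told apart.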

How the data were processed

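The deposited table holds the authors' raw counts of reads for each gene symbol in 12 libraries and a length for each symbol. Stranded libraries were made from total RNA, per the labels' protocols, and the reads were processed with Bowtie on hg38, per the submitters' processing notes; the counting tool, its strand setting and the annotation were not stated there. The 35 genes and the pathway and marker lists were chosen with earlier results of these data known. Their counts are read against the share called among all tested genes, which does not correct for that choice. Counts that passed edgeR's filterByExpr (17889 symbols) were given TMM factors (trimmed mean of M values) and fitted with a robust quasi-likelihood model of 1 mean per group over all 12 libraries (edgeR 4.0.16, R 4.3.3), with Benjamini-Hochberg adjusted p-values and a threshold of 0.05. The 6 comparisons were those named in the report, and intervals are 95%. The procedure was tested on simulated data. CPM used the scaled library sizes, and TPM the deposited lengths. Genes given values per library were the 5 sensors and factors and, in each other role, up to 3 called genes with the largest change in DHN against NC or DHN-A against DHN, with MANF added after its values were seen. In the other comparisons up to 5 called genes in each direction were named, and from each pathway list up to 2 with a mean of at least 50 counts. Deviations of libraries with the same replicate number correlated between -0.176 and 0.229 across group pairs, so the numbers were not taken to pair libraries. No 2 libraries of a group agreed within sampling noise (chi-square per gene from 1.77 to 4.34). The same comparisons were repeated with DESeq2 1.42.0, with relative log expression factors, with limma-voom (limma 3.58.1), with no filter on low counts, with a replicate block, after thinning to the smallest library, on the groups compared alone, and without each library in turn. Promoters are from RefSeq (GRCh38.p14) and transcripts from GENCODE release 29.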

Additional observations from a re-analysis of the deposited data

Results flagged for a closer look

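The change with 1,2-DHN differed between cells with and without asparagine in 20 of the 34 tested genes, by edgeR's quasi-likelihood test of the interaction with Benjamini-Hochberg adjustment over all tested genes. Among all tested genes the interaction was called for 25.7%, positive in 13.2% and negative in 12.5%. The difference in log2 change (with asparagine minus without) was negative for ERN1 (-1.04), DNAJB9 (-0.55), XBP1 (-0.32) and SERP1 (-0.28). In the HSP70 and HSP90 system it was positive for HYOU1 (0.53), HSPA5 (0.39), SDF2L1 (0.30), HSP90B1 (0.26) and DNAJB11 (0.19). All of these genes also fell with asparagine alone (NC-A against NC), so a positive value here is not a return to the NC level. The interaction calls of SDF2L1 and DNAJB11 were lost in 8 and 9 of 18 alternatives. Among the isomerases it was positive for PDIA4 (0.58), PDIA5 (0.40), CRELD2 (0.39), PDIA6 (0.18) and P4HB (0.18). The lectin chaperones CALR (0.23) and CANX (0.18), the transcription factor CREB3L2 (0.41) and the degradation genes SEL1L (0.47), EDEM2 (0.33) and OS9 (0.31) were positive as well. All 4 groups hold 3 libraries, too few for a test of outlying values within a group. NC-A 1, which stood apart on the first principal component, is treated in the report.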

How the results depend on the processing

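Counts of called genes stayed within 1.5 times their value for DHN against NC (27 called), DHN-A against DHN (22), NC-A against NC (18) and the interaction (20) under every alternative run. In DHN-A against NC-A, where 0 rose and 3 fell, DESeq2 called 6 (1 higher, 5 lower) and the test without a filter on low counts called 1 (1 lower); thinning and the groups compared alone each added 1 higher. Leaving out 1 library gave 0 to 3 calls there, 0 to 3 of them lower. In DHN-A against NC, where 2 rose, DESeq2 called 1 and leaving out a library gave 1 to 3. With a replicate block the 6 comparisons had 27, 22, 18, 3, 23 and 20 calls, against 27, 22, 18, 3, 24 and 20. Among pairs of gene and comparison called under some setting, and all pairs of the 5 sensors and factors, signs turned for 2, both in NC-A against NC: ATF6 (-0.092 to 0.0063 with 1 library left out, above 0 without NC 2) and XBP1 (-0.058 to 0.034, above 0 without NC 3 or NC-A 3, where it was 0.0044), neither being called. Of their values under alternatives, 84 lost a call, 47 gained one and 2555 did neither. The other 61 pairs of gene and comparison, called under no setting, turned sign in 52 of 1153 values (24 of the pairs). The causes were not tested. With 3 libraries per group and replicate independence unknown, a gene not called may still have changed within its interval, and reads shared by overlapping genes or by XBP1 forms were not resolved.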
